A study of Mus musculus with 47 samples.

Results

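The genes described here are 8 genes of taurine and sulfur amino acid metabolism in the mouse liver: Csad, Cdo1, Slc6a6, Cth, Cbs, Bhmt, Mat1a and Gnmt. They were chosen by name, with earlier results of these data known, and every array probe that carries one of these names was used. The lists of further genes below were chosen in the same way. Ranks of these genes and their counts beside all genes are therefore a description and not independent evidence. The 8 genes were all measured, through 14 of the 32974 probes tested, which stand for 21741 gene names in all.

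Liver RNA of 47 mice was hybridized with Cy3 label on 1-colour mouse expression arrays, with 1 array per mouse. The mice were Pxr+/+ and Pxr-/- littermates from Pxr+/- parents on a C57Bl/6J background, and they were 6 months old when treatment began. Pxr-/- mice lack the pregnane X receptor (PXR) in the whole body, so a change in their liver is not tied to the loss of PXR from hepatocytes. ATB mice drank water with ampicillin at 1 g/L, neomycin at 1 g/L and vancomycin at 0.5 g/L for 2 weeks, and Cont mice did not. From 5 weeks of age each sex and genotype was kept apart, and the mice were killed at zeitgeber time 6. The 8 groups were Pxr+/+ Cont males, Pxr+/+ ATB males, Pxr-/- Cont males, Pxr-/- ATB males and the same 4 groups of females, with 6 mice in each group except Pxr-/- Cont males, with 5. Each group held 8 mice in 2 cages, and arrays were described for 3 mice of each cage, which the 5 Pxr-/- Cont males fall short of. The cage of each mouse was not used here, so a difference between groups cannot be told apart from one between their cages, and p-values reflect only the spread between mice.

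Methionine is activated by MAT1A to S-adenosylmethionine, the methyl donor of the cell, and GNMT is a major user of it in the liver. The homocysteine that follows is either methylated back to methionine, by BHMT with betaine, or passed on by CBS and CTH to cysteine. CDO1 oxidizes cysteine to cysteine sulfinate, CSAD decarboxylates it to hypotaurine, the precursor of taurine, and SLC6A6 carries taurine into cells. Taurine is the main partner to which the mouse liver conjugates bile acids. PXR is a nuclear receptor that senses drugs and bile acids and is best known for driving genes of drug metabolism.

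The sex labels were checked with marker genes. Xist was between 7.8 and 8.31 on the log2 scale in females and not well above background in any male, whereas Ddx3y was between 6.94 and 7.84 in males and not well above background in any female. Neither of the 2 probes examined for this showed which mice lacked PXR, so the genotype labels were taken as given. The brightest probe for Nr1i2, which encodes PXR, did not separate the genotypes, at 10.36 to 11.89 in Pxr-/- mice and 11.23 to 12.41 in Pxr+/+ mice. Whether that probe lies in the deleted part of the gene is not given in the sources used here. Cyp2c55, a target of PXR, differed between the genotypes without overlap but was higher in the mice labelled Pxr-/- (9.14 to 10.77) than in those labelled Pxr+/+ (6.23 to 8.49). It thus split the mice as the labels do, but does not show which set lacks PXR. Each level below is a normalized log2 intensity of a probe, each difference is on the same log2 scale, and a gene was called changed when at least 1 of its probes had an adjusted p of at most 0.05 and a fold change above 1.2. Levels of different probes are not comparable with each other. These are bulk samples, in which fewer cells of a type and less RNA per cell cannot be told apart.

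Csad, the last enzyme before hypotaurine, was lower in ATB than in Cont mice. Its main probe lies at chr15:102007569-102007628 in the mm9 build, is assigned by the array files to the transcript NM_144942, and was well above background and unsaturated on all 47 arrays. In males, Csad ranged from 13.2 to 14.81, with a median of 13.65, in Pxr+/+ Cont mice and from 12.14 to 12.96, with a median of 12.67, in Pxr+/+ ATB mice. The 5 Pxr-/- Cont males were at 12.71, 13.02, 13.17, 13.3 and 14.58, and the Pxr-/- ATB males were between 11.56 and 12.26, with a median of 11.95. In both male genotypes every ATB mouse was below every Cont mouse. In females, Pxr+/+ Cont mice ranged from 11.93 to 14.56 with a median of 13.37, and Pxr+/+ ATB mice from 10.61 to 11.28 with a median of 10.77. These female groups did not overlap either. Pxr-/- Cont females ranged from 10.46 to 12.69 with a median of 12.26, and Pxr-/- ATB females from 9.89 to 10.62 with a median of 10.41. Here the groups overlapped, because 2 Pxr-/- Cont females were low, at 10.46 and 10.7, while the other 4 were at 12.16 or above.

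**Figure D1:**
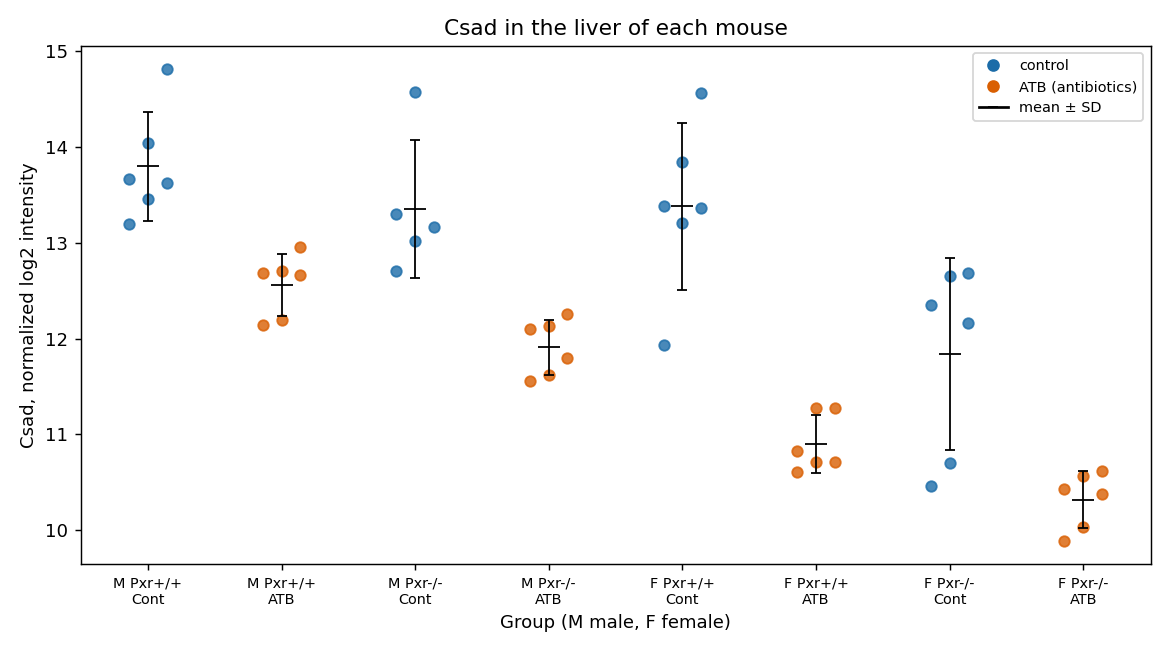
Csad in each mouse. The vertical axis gives the normalized log2 intensity of its main probe and the horizontal axis the 8 groups (blue points, Cont mice; orange points, ATB mice; black lines, mean ± SD over 6 mice, or 5 Pxr-/- Cont males). In every sex and genotype the mean and the SD are lower in ATB than in Cont mice, and in Pxr-/- females the ranges overlap.

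By mean level the groups fell in the order Pxr+/+ Cont males (13.8 ± 0.57, SD), Pxr+/+ Cont females (13.38 ± 0.87), Pxr-/- Cont males (13.35 ± 0.72), Pxr+/+ ATB males (12.56 ± 0.32), Pxr-/- ATB males (11.91 ± 0.29), Pxr-/- Cont females (11.84 ± 1), Pxr+/+ ATB females (10.9 ± 0.3) and Pxr-/- ATB females (10.32 ± 0.3). Each neighbouring pair in this order overlapped in range, and only groups farther apart were clear of each other.

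In Pxr+/+ females Csad fell by 2.48 with ATB (SE 0.34, 5.57-fold, adjusted p = 0.00013), and of the 32974 probes tested it had the lowest p in that comparison. It was the only 1 of the 8 genes called there, against a background of 0.0184% of all genes, which is 4 genes. When the 2 groups were fitted without the other 6, the same difference had an adjusted p of 0.112. In the other 3 comparisons of ATB with Cont mice the difference was of similar direction but not called, at -1.24 in Pxr+/+ males (SE 0.34, adjusted p = 0.0547), -1.44 in Pxr-/- males (SE 0.35, adjusted p = 0.135) and -1.52 in Pxr-/- females (SE 0.34, adjusted p = 0.0519). The shares of all genes for which ATB mice lay wholly below Cont mice were 0.313% in Pxr+/+ males, 0.423% in Pxr-/- males and 0.396% in Pxr+/+ females. The first and the last of these 3 uncalled differences lay close to the limit and passed it under several other settings, including a fit with the slide as a block (adjusted p = 0.025 and 0.0217).

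The 4 comparisons of ATB with Cont mice use different mice, so their mean was also tested. On average over sexes and genotypes Csad fell by 1.67 (SE 0.17, 3.18-fold, adjusted p = 5.54e-08), again with the lowest p of all 32974 probes. At that average, 2.68% of all genes were called, and of the 8 genes Csad and Bhmt were. Each slide carried 1 array of every group, apart from the slide that lacked a Pxr-/- Cont male. Csad was lower on the ATB array of 23 of 23 pairs of arrays from the same slide, by between -3.28 and -0.03, and in 12 of 12 comparisons within a wash batch, by between -2.65 and -0.51. In both male genotypes and in Pxr+/+ females the groups did not overlap, so the direction of these comparisons was fixed. Only those of Pxr-/- females could have gone the other way. The slides lie within the wash batches, so both counts use the same mice. A dim second Csad probe, well above background on 40 of the 47 arrays, was lower in 21 of 23 slide pairs and fell by 0.42 on average (adjusted p = 0.000299).

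**Figure D2:**
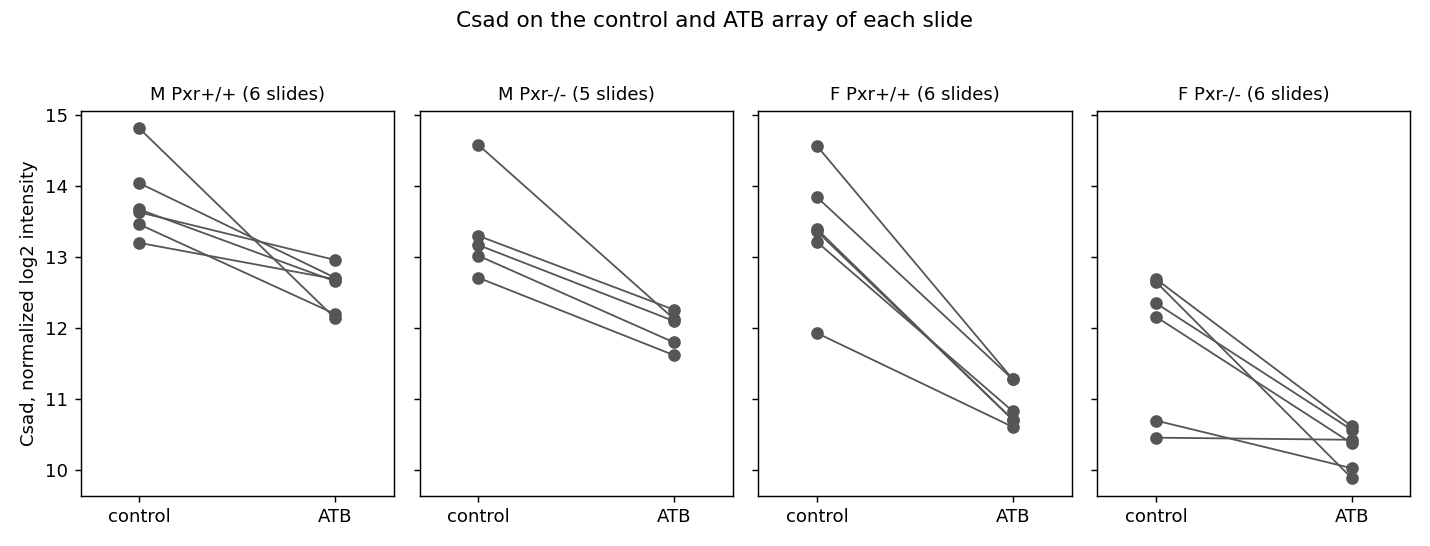
Csad on the Cont and the ATB array of each slide. Each line joins the 2 arrays of 1 slide, which hold different mice, and the vertical axis gives the normalized log2 intensity. All 23 lines go down from Cont to ATB, the flattest by 0.03 in Pxr-/- females. Outside Pxr-/- females the Cont and ATB ranges do not overlap, so those lines could only go down.

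The spread of Csad between mice was larger without antibiotics. The SD was between 0.57 and 1 in the 4 Cont groups and between 0.29 and 0.32 in the 4 ATB groups. Such a complete separation of the SDs was found for 1.8% of all probes. None of the 12 probes for the other 7 genes showed it. The second Csad probe lies too near background, in ATB mice most of all, for its spread to be compared. This contrast was looked at after the values had been seen and was not tested.

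No marker of the 8 cell type lists examined (hepatocytes, macrophages, sinusoidal endothelium, stellate cells, cholangiocytes, lymphocytes with neutrophils, and pericentral and periportal hepatocytes) was called in any of the 4 comparisons of ATB with Cont mice. Few genes of any kind were called there. The shares of all genes were 1.31% in Pxr+/+ males, 0.11% in Pxr-/- males, 0.0184% in Pxr+/+ females and 0.0414% in Pxr-/- females. The lack of calls therefore does not show that cell content was unchanged. In the same order, the median of the macrophage markers was -0.22, 0.42, -0.59 and -0.07. For all genes it was 0.1, 0.02, -0.06 and 0.05. At the average over the 4, 3 of 6 pericentral markers were called higher (Cyp2e1, Oat and Slc1a2), none of 8 hepatocyte markers was called, and the neutrophil genes S100a8 and S100a9 were called lower. Of all genes, 2.68% were called at that average. The summed level of the pericentral markers was 18.44 to 18.77 in Pxr+/+ Cont males and 18.79 to 18.92 in Pxr+/+ ATB males, and 18.62 to 19.04 and 18.88 to 19.23 in the matching females. Their part in the Csad difference was not tested.

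Csad was lower with loss of PXR in Cont females. There it fell by 1.54 in Pxr-/- against Pxr+/+ mice (SE 0.34, adjusted p = 0.0103), and it was the 1 gene of the 8 called, beside 4.09% of all genes. This call rests partly on 1 of the low mice. Without Pxr-/- Cont female replicate 5 the difference was -1.3, with an adjusted p of 0.0517, and without the other 6 groups in the fit the adjusted p was 0.167. The median of all probes was -0.11 in this comparison, and quantile normalization of all arrays moved the balance of all genes from 52 higher and 838 lower to 124 and 168, with Csad still called (-1.44, adjusted p = 0.0204). In Cont males, ATB males and ATB females the differences were -0.45, -0.65 and -0.58, and none was called (adjusted p = 0.997, 0.236 and 1). On average Csad fell by 0.81 (SE 0.17, adjusted p = 0.00221), and it was lower on the Pxr-/- array of 22 of 23 slide pairs. The dim second Csad probe was lower in 14 and higher in 9 of these pairs, and was at -0.49 in Cont females (adjusted p = 0.0532). At the average over the 4 comparisons Csad, Cth and Mat1a were the 3 of 8 genes called, all lower, beside 4.47% of all genes. Of these, Csad alone was called with quantile normalization, with normexp, with the processed signal and with the authors' values. Mat1a was at -0.29 (SE 0.06, adjusted p = 0.00106) and went under the fold limit in these 4 settings (-0.24 to -0.2).

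Macrophage markers moved with the difference in Cont females. Of 10 tested, 5 (Clec4f, Cd68, Csf1r, Vsig4 and Lyz2) were called lower in Pxr-/- than in Pxr+/+ Cont females, and the summed level of the list was 14.42 to 15.09 and 15.33 to 16.39 in these groups. Of 6 sinusoidal endothelial markers, 3 (Stab2, Clec4g and Kdr) were called lower, and of 6 lymphocyte and neutrophil markers 1 (Ly6g). Of 8 hepatocyte markers none was called there, and of all genes 4.09% were. The part of these cells in the Csad difference was not tested.

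Csad was called higher in males than in females in 3 of 4 comparisons. The difference, male less female, was 1.65 in Pxr+/+ ATB mice (SE 0.34, adjusted p = 0.000446), 1.52 in Pxr-/- Cont mice (SE 0.35, adjusted p = 0.00221) and 1.59 in Pxr-/- ATB mice (SE 0.34, adjusted p = 0.000505), and in each of these the sexes did not overlap. All males lay above all females for 2.8%, 1.79% and 1.67% of all genes in these comparisons. In Pxr+/+ Cont mice it was 0.42 (SE 0.34, adjusted p = 0.326), with overlapping ranges. The call in Pxr-/- Cont mice was lost when only those 2 groups were fitted (adjusted p = 0.0574). The dim second Csad probe was higher in males in 18 and lower in 5 of 23 slide pairs. Its average difference of 0.21 (adjusted p = 0.0126) was under the fold limit.

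Whether the Csad responses differed between groups was tested directly. The fall with ATB was larger in Pxr+/+ females than in Pxr+/+ males by 1.23 (95% interval 0.28 to 2.19, unadjusted p = 0.0128 and adjusted p = 0.321). In females the fall was larger in Pxr+/+ than in Pxr-/- mice, with a difference of -0.96 (95% interval -1.92 to 0, adjusted p = 0.49), and in males the genotypes differed by 0.2 (95% interval -0.78 to 1.18, adjusted p = 0.948). The effect of PXR loss differed between the sexes of Cont mice by 1.1 (95% interval 0.11 to 2.08, adjusted p = 0.973). None of these passed the test, and the intervals do not show that the responses were alike.

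The RefSeq start sites of Csad and that of Bhmt are shown, since these genes carried the calls with ATB on average. The sequences run from 250 bases before to 50 bases after the start, 5′ to 3′ on the minus strand, in the GRCm38.p6 build. Capitals mark AGGTCA, a 6-base half-site bound by many nuclear receptors, where it reads in the direction of the gene.
Csad, first start (chr15:102205003-102205302): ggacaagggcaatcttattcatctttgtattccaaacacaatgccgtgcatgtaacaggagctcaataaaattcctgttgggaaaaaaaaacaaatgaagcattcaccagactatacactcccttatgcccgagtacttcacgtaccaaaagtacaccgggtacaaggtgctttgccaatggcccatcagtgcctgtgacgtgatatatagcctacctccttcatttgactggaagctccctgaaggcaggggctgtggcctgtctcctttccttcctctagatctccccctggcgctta
Csad, second start (chr15:102188994-102189293): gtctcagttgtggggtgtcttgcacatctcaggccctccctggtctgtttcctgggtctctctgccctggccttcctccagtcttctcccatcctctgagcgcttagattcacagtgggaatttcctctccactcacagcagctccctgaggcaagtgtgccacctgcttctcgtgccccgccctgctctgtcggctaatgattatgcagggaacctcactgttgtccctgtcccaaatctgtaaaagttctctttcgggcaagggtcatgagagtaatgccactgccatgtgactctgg
Bhmt (chr13:93637709-93638008): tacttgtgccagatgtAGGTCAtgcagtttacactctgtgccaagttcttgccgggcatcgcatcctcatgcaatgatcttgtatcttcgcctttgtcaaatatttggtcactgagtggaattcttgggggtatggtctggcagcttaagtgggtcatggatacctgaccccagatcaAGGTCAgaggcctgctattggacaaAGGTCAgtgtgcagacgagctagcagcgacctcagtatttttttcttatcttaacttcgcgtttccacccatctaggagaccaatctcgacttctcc

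AGGTCA and the related AGTTCA were searched on both strands in these windows, which the RefSeq promoter table holds for 4 of the 8 genes (Csad, Cbs, Bhmt and Gnmt) with 5 starts in all. Bhmt held AGGTCA at 3 places, 234, 72 and 47 bases before its start, and Gnmt at 1 place, 181 bases before its start on the opposite strand. Neither motif was found at the Csad starts or at the Cbs start. Of 32851 RefSeq promoter windows of the same length, 16.3% hold AGGTCA, 14% AGTTCA and 27.7% at least 1 of them. A match is a stretch of letters and not a measured binding site.

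Bhmt, the enzyme that methylates homocysteine with betaine, rose with ATB in Pxr+/+ males. It was read by 3 probes that did not move by the same amount. The probe with the highest signal was between 17.33 and 17.94 over all mice, and a second bright probe between 14.53 and 16.44. The second probe is shown because its call in Pxr+/+ males held in all 9 other settings and without any 1 of the 12 arrays compared. It was thus chosen by its result, and its call is not independent of that choice. Its 60 bases form an open reading frame of 19 codons that ends in the stop codon in capitals. The probe was therefore taken to cover the end of the coding sequence, to which it was not aligned here.
Bhmt coding-end probe: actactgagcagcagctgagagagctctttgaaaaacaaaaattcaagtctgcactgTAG

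On the coding-end probe, Pxr+/+ Cont males ranged from 15.02 to 15.69 with a median of 15.35 and Pxr+/+ ATB males from 16.1 to 16.44 with a median of 16.23. The groups were clear of each other. Bhmt rose by 0.86 (SE 0.18, adjusted p = 0.00803). The 5 Pxr-/- Cont males were between 15.07 and 15.61 and the Pxr-/- ATB males between 15.57 and 16.26, a difference of 0.53 (SE 0.19, adjusted p = 0.538) that was not called. In females the ranges overlapped in both genotypes, with differences of 0.13 and 0.3. The brightest probe separated Pxr+/+ Cont males (17.58 to 17.73) from Pxr+/+ ATB males (17.78 to 17.94) as well, but by only 0.23 (SE 0.08, adjusted p = 0.109), and the dimmest probe rose by 0.88 (adjusted p = 0.0365), a call that was lost in 11 of the 12 fits that left out 1 array (adjusted p up to 0.112). On average over the 4 comparisons the coding-end probe rose by 0.46 (SE 0.09, adjusted p = 0.00125) and was higher on the ATB array of 18 of 23 slide pairs. The response in Pxr+/+ males exceeded that in Pxr+/+ females by 0.73 on this probe (95% interval 0.22 to 1.24), with an adjusted p of 0.296. Between the sexes, Bhmt on this probe was higher in Pxr+/+ ATB males than in Pxr+/+ ATB females by 0.73 (SE 0.18, adjusted p = 0.00381).

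Mat1a, which makes S-adenosylmethionine, differed with sex and, among ATB males, with PXR. In males, Mat1a ranged from 13.92 to 14.46 with a median of 14.32 in Pxr+/+ Cont mice and from 14.5 to 14.98 with a median of 14.74 in Pxr+/+ ATB mice. The 5 Pxr-/- Cont males were at 13.63, 13.83, 13.91, 14.19 and 14.2, and the Pxr-/- ATB males between 13.65 and 14.26. Thus the ATB mice stood above the Cont mice in Pxr+/+ males and among them in Pxr-/- males. Mat1a rose by 0.48 with ATB in Pxr+/+ males (SE 0.11, adjusted p = 0.0227) and differed by 0.07 in Pxr-/- males (SE 0.12, adjusted p = 0.948). The difference between these responses was 0.41 (95% interval 0.08 to 0.74, unadjusted p = 0.0162 and adjusted p = 0.844) and was not called. Among ATB males, Mat1a fell by 0.71 in Pxr-/- against Pxr+/+ mice (SE 0.11, adjusted p = 0.000126), a call that held in all 9 other settings and without any 1 of the 12 arrays compared. That comparison and the response to ATB share the same Pxr+/+ ATB males, and their calls are not independent of each other.

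All 4 female groups lay higher in Mat1a, with medians of 14.87 in Pxr+/+ Cont, 14.95 in Pxr+/+ ATB, 14.73 in Pxr-/- Cont and 15.05 in Pxr-/- ATB mice. Mat1a was lower in males by 0.66 in Pxr+/+ Cont mice (SE 0.11, adjusted p = 1.86e-05), by 0.82 in Pxr-/- Cont mice (SE 0.12, adjusted p = 1.42e-06) and by 0.94 in Pxr-/- ATB mice (SE 0.11, adjusted p = 1.78e-08). In these 3 comparisons no male reached the lowest female, which was so for 18.8%, 6.84% and 11.1% of all genes. In Pxr+/+ ATB mice the sexes overlapped, at 14.5 to 14.98 in males and 14.63 to 15.35 in females, and the difference was -0.22 (adjusted p = 0.238). The effect of PXR loss among ATB mice differed between the sexes by -0.72 (95% interval -1.04 to -0.4, unadjusted p = 4.62e-05), with an adjusted p of 0.117.

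Cdo1, which supplies the substrate of CSAD, showed smaller changes with little spread. Pxr+/+ Cont males were between 15.21 and 15.33 and Pxr+/+ ATB males between 15.58 and 15.71. These groups did not overlap, and Cdo1 rose by 0.37 with ATB (SE 0.09, adjusted p = 0.0253). A second Cdo1 probe rose by 0.35 (adjusted p = 0.0587), just outside the limit. In Pxr-/- males Cdo1 was between 15.06 and 15.32 in Cont and between 15.1 and 15.36 in ATB mice, and in females the Cont and ATB groups overlapped in both genotypes. With ATB in Pxr+/+ males Cdo1 was thus higher, where Csad was at -1.24 and not called. Among ATB males it fell by 0.39 in Pxr-/- against Pxr+/+ mice (SE 0.09, adjusted p = 0.0181), and both probes were called, although the second was not in 9 of the 12 fits that left out 1 array (adjusted p up to 0.0978).

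With ATB in Pxr+/+ males, Cdo1, Bhmt and Mat1a were thus the 3 of 8 genes called, beside 1.31% of all genes, of which 243 were called higher and 41 lower. On at least 1 of their probes all 3 had no overlap between the groups, with ATB mice above, as did 4.9% of all genes. All probes together had a median difference of 0.1 in that comparison. Less that median, the rise was 0.27 for Cdo1, 0.76 for the coding-end probe of Bhmt and 0.38 for Mat1a. With only the brightest probe of each gene, Bhmt was not called. Quantile normalization of all arrays turned the balance of calls to 107 genes higher and 203 lower. With it Bhmt was still called on the coding-end probe (0.69, adjusted p = 0.0434), whereas Cdo1 (0.22, adjusted p = 0.127) and Mat1a (0.34, adjusted p = 0.118) were not. The Cdo1 call was also lost without Pxr+/+ ATB male replicate 1, 2 or 5 or Pxr+/+ Cont male replicate 4 or 6 (adjusted p up to 0.0614). The Mat1a call was lost without Pxr+/+ ATB male replicate 2 or 5 or Pxr+/+ Cont male replicate 1 or 3 (adjusted p up to 0.079). No gene of the 8 was called with ATB in Pxr-/- males, beside 0.11% of all genes, or in Pxr-/- females, beside 0.0414%. At an unadjusted p under 0.05 there were 3 of the 8 in each of these comparisons, of 2011 and 3432 genes in all.

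Among ATB males, Cdo1 and Mat1a were the 2 of 8 genes called lower in Pxr-/- mice, beside 1.19% of all genes, and for both all Pxr-/- mice lay below all Pxr+/+ mice, as for 4.14% of all genes. The median of all probes was -0.13 there. Less that median the differences were -0.26 for Cdo1 and -0.58 for Mat1a, and with quantile normalization only Mat1a was called (-0.56, adjusted p = 0.0018), while Cdo1 was at -0.24 (adjusted p = 0.135) and the balance of all genes turned from 74 higher and 184 lower to 160 and 34. Cdo1 was also lost without Pxr-/- ATB male replicate 2 or 6. In Cont males, where 0.193% of all genes were called, and in ATB females, where 0.23% were, none of the 8 was called with PXR loss, and 1 of the 8 had an unadjusted p under 0.05 in each, of 1476 and 1519 genes.

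**Figure D3:**
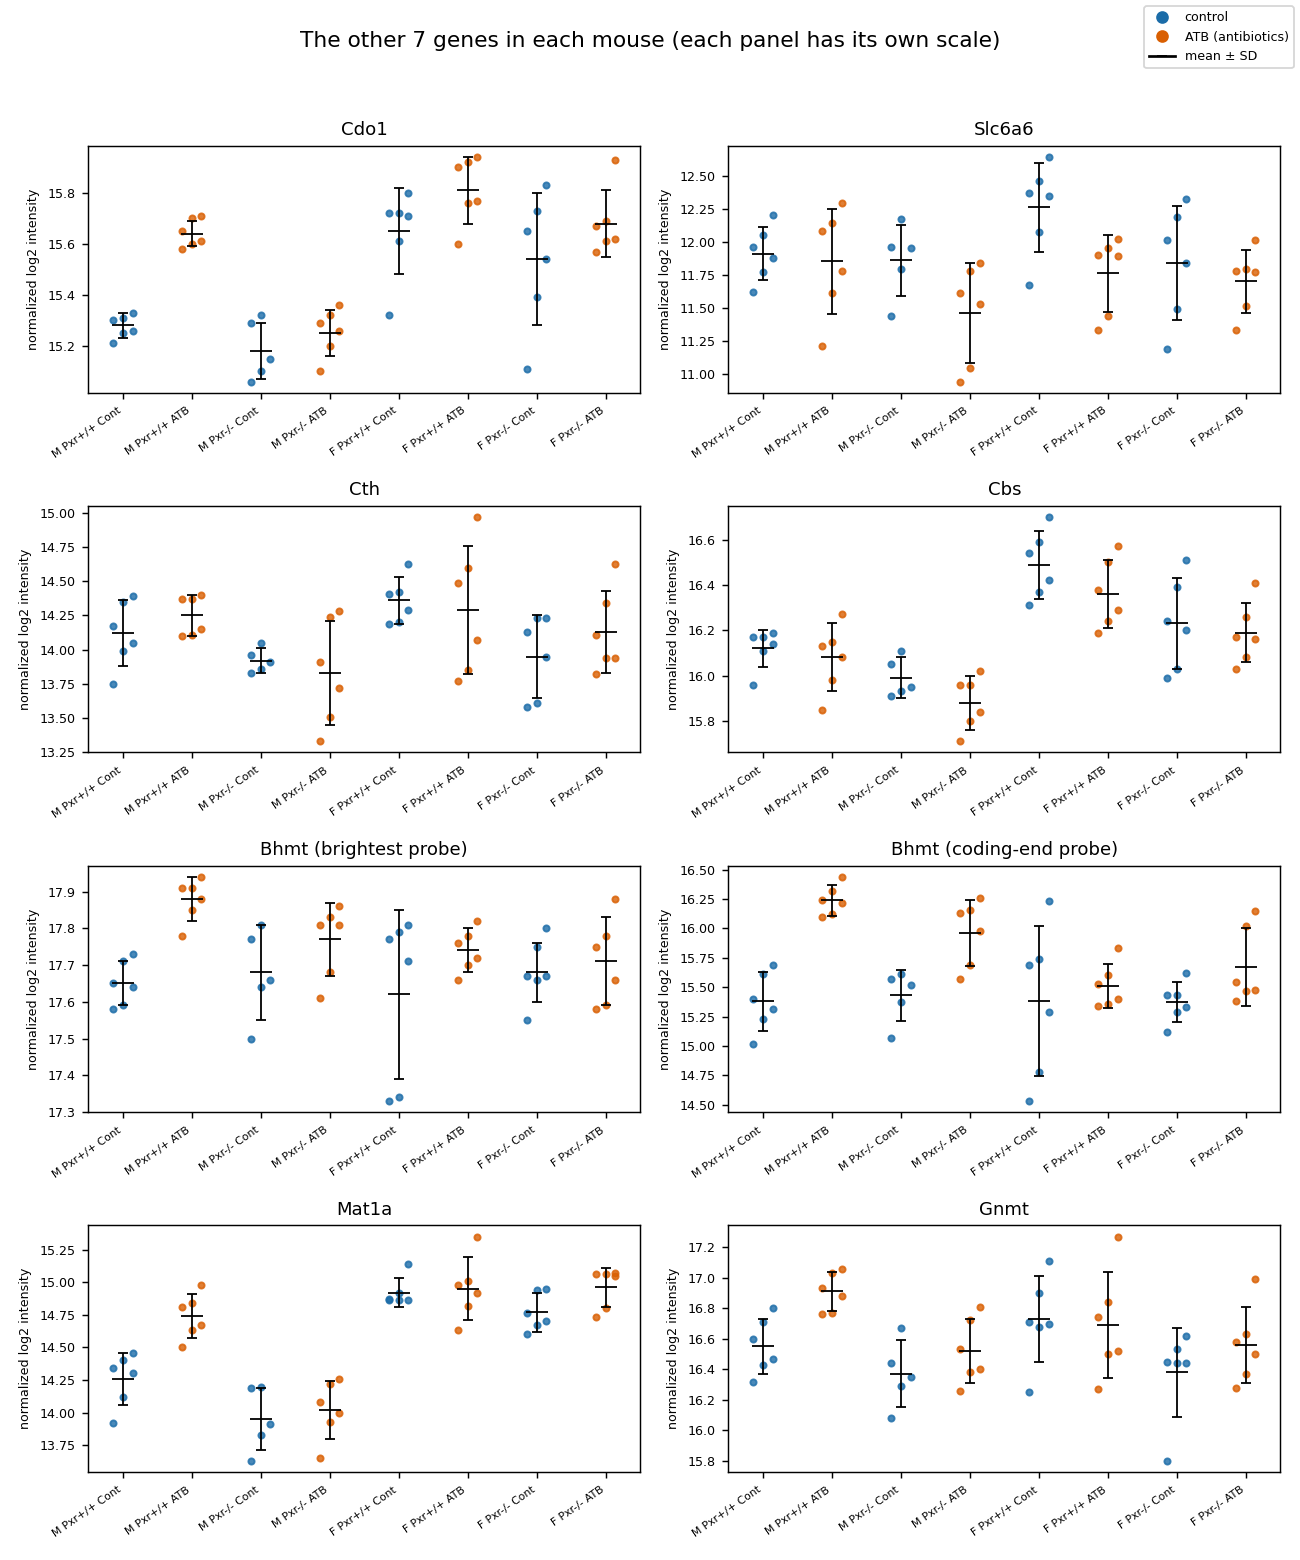
The other 7 genes in each mouse. The vertical axes give normalized log2 intensity, each on its own scale, of the brightest probe of each gene and of the Bhmt coding-end probe, for the 8 groups (blue, Cont; orange, ATB; black lines, mean ± SD). Bhmt, Mat1a and Cdo1 are higher in Pxr+/+ ATB males than in Pxr+/+ Cont males with no overlap, and in Mat1a the mean of each of the 4 male groups lies below that of the matching female group.

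Cbs and Cth form the transsulfuration pathway from homocysteine to cysteine, and neither was called with ATB in any of the 4 comparisons. Cbs was lower in males. Pxr+/+ Cont males were between 15.96 and 16.19 and Pxr+/+ Cont females between 16.31 and 16.7, with no overlap. The difference was -0.36 in Pxr+/+ Cont mice (SE 0.09, adjusted p = 0.00141), -0.28 in Pxr+/+ ATB mice (adjusted p = 0.0244) and -0.31 in Pxr-/- ATB mice (adjusted p = 0.00797). In Pxr-/- Cont mice it was -0.24 (adjusted p = 0.0668) and not called. The call in Pxr+/+ ATB mice was lost without Pxr+/+ ATB male replicate 1 or 5 or Pxr+/+ ATB female replicate 1 or 6 (adjusted p up to 0.104), and that in Pxr-/- ATB mice fell under the fold limit without Pxr-/- ATB female replicate 6 (-0.26). Cth, the enzyme that releases cysteine, lay between 13.33 and 14.97 over all mice and was called in none of the 12 comparisons of single groups. On average it fell by 0.3 with PXR loss (SE 0.08, adjusted p = 0.0212), with 18 of 23 slide pairs lower, and this call was lost with quantile normalization (-0.23, adjusted p = 0.0706) and fell under the fold limit without Pxr+/+ ATB female replicate 6 (-0.26).

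Slc6a6, the taurine transporter, and Gnmt, which methylates glycine, were not called in any comparison or average. Slc6a6 was between 10.94 and 12.64 over all mice. Its largest difference with ATB was -0.5 in Pxr+/+ females (SE 0.19, adjusted p = 0.355), where the Cont females were between 11.67 and 12.64 and the ATB females between 11.33 and 12.02. On average with ATB it was at -0.28 (SE 0.09, adjusted p = 0.0704), and this was called under 4 of the 9 other settings, quantile normalization and the authors' values among them. Gnmt was between 15.8 and 17.27. Its largest differences were 0.35 with ATB in Pxr+/+ males (SE 0.14, adjusted p = 0.188) and -0.39 with PXR loss in ATB males (SE 0.14, adjusted p = 0.129). On average with PXR loss Gnmt differed by -0.26 (SE 0.07, adjusted p = 0.0179), which is under the fold limit.

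Over the comparisons of males with females, Csad was thus higher in males while Cdo1, Cbs and Mat1a were lower. Cdo1 was lower by 0.37 in Pxr+/+ Cont, 0.36 in Pxr-/- Cont and 0.43 in Pxr-/- ATB males (adjusted p = 0.00126, 0.00561 and 0.000303). Of the 8 genes, 3 were called in Pxr+/+ Cont mice, beside 36.6% of all genes, 3 in Pxr+/+ ATB mice, beside 14.4%, 3 in Pxr-/- Cont mice, beside 18.7%, and 4 in Pxr-/- ATB mice, beside 30.2%. In Pxr+/+ Cont mice the count is near the background, in the other 3 comparisons it is above it, and with 8 genes nothing particular to them can be read from the counts. On average over the 4, 5 of the 8 were called, beside 29.9% of all genes. Most genes were called lower in males, 7439 against 551 higher in Pxr+/+ Cont mice, and the median of all probes was -0.2 there, -0.03 in Pxr+/+ ATB, -0.12 in Pxr-/- Cont and -0.18 in Pxr-/- ATB mice. With quantile normalization the balance was 2011 lower and 1960 higher in Pxr+/+ Cont, 1992 and 1741 in Pxr+/+ ATB (2224 and 909 before), 1545 and 1677 in Pxr-/- Cont (3447 and 629 before) and 1594 and 1735 in Pxr-/- ATB mice (5965 and 629 before).

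Under that normalization, 8 rather than 13 calls were made for the 8 genes over the 4 comparisons of sex. Mat1a was still lower, by 0.47, 0.69 and 0.77 in the 3 comparisons named above, and Csad still higher, by 1.68, 1.65 and 1.78. Cdo1 was called only in Pxr-/- ATB mice (-0.29, adjusted p = 0.0037), and the Cbs differences of -0.22, -0.26 and -0.17 were not called. With the scanner's processed signal, Bhmt was called higher on its brightest probe in Pxr+/+ Cont males (0.31) and Pxr-/- ATB males (0.28). A dim Slc6a6 probe was then called higher in Pxr+/+ Cont males (0.44, beside 0.08 before) and Pxr-/- Cont males (0.47, beside 0.15), while the brightest Slc6a6 probe was not called and had been at -0.34 in Pxr+/+ Cont males (adjusted p = 0.143). Macrophage markers differed between the sexes too: 9 of 10 were called lower in Pxr+/+ Cont males than females, with Csf1r called lower on 1 probe and higher on another, and the summed level was 14.39 to 14.85 against 15.33 to 16.39. In the same comparison 5 of 6 stellate cell markers, 3 of 6 sinusoidal endothelial markers, 2 of 6 lymphocyte and neutrophil markers, 2 of 6 periportal markers and 3 of 6 pericentral markers (Glul, Slc1a2 and Rgn) were called lower in males, and 1 periportal marker (Cyp2f2) was called higher. Of the 8 hepatocyte markers none was called in Pxr+/+ mice, and 1 was called lower in Pxr-/- Cont males (Hnf4a) and 1 in Pxr-/- ATB males (Ttr). The same 3 pericentral markers were called lower in males in both of these Pxr-/- comparisons. The part of these markers in the differences of the 8 genes was not tested.

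**Figure D4:**
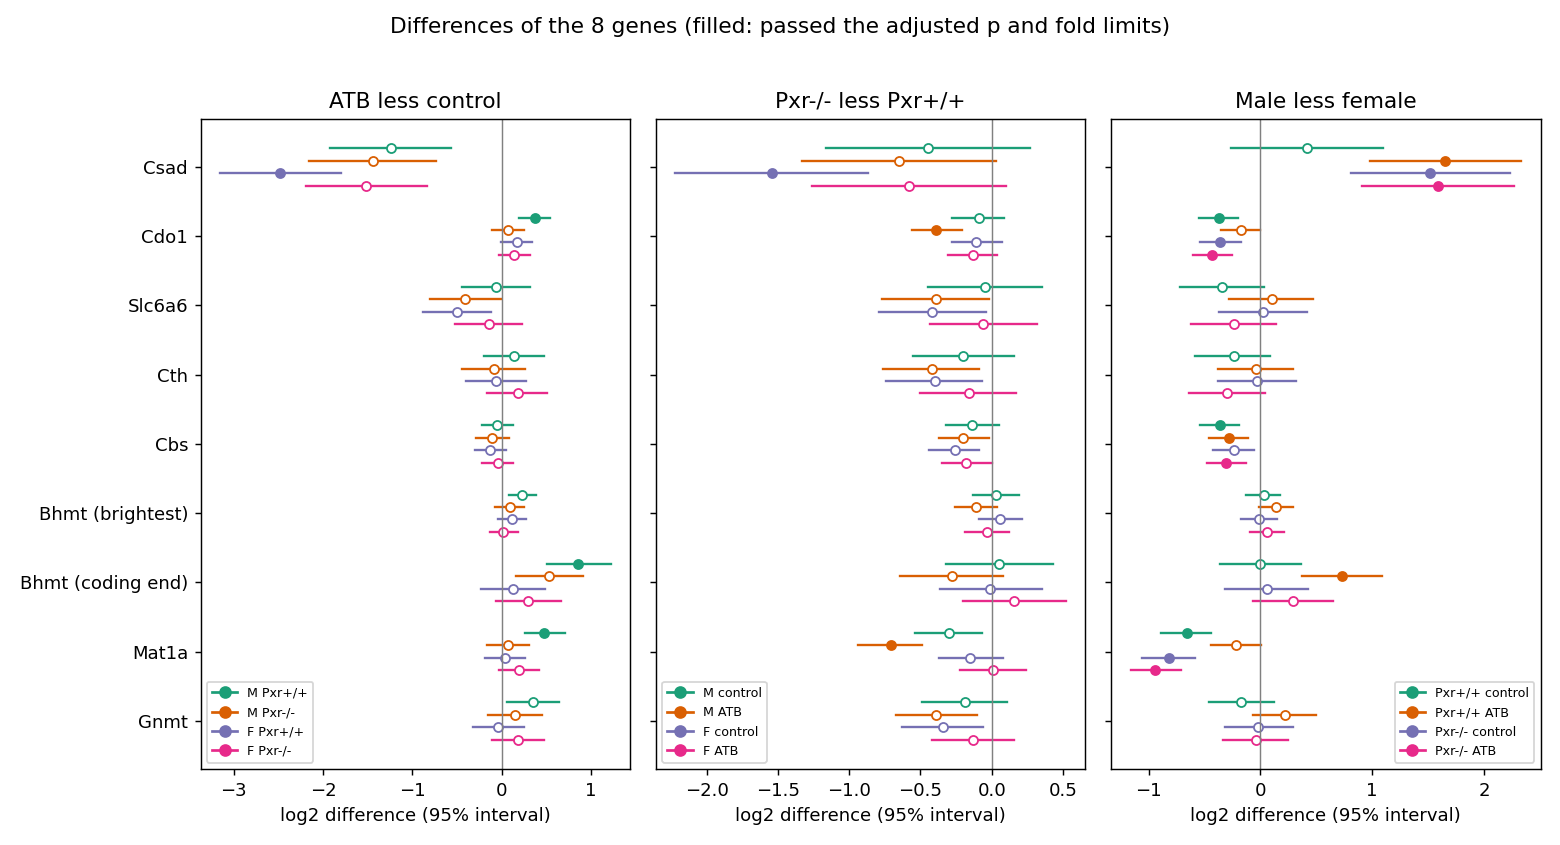
Differences of the 8 genes in the 12 comparisons of single groups. The horizontal axes give the log2 difference with its 95% interval, ATB less Cont, Pxr-/- less Pxr+/+ and male less female, and filled points mark calls. Csad lies left of 0 with ATB in all 4 comparisons, at -2.48 to -1.24, and right of 0 between the sexes, whereas Mat1a lies left of 0 between the sexes.

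Of 43 further genes of the methionine cycle, methionine salvage, cysteine and taurine handling and glutathione synthesis, 40 were tested. The difference given for a called gene is that of its called probe with the largest change. With ATB in Pxr+/+ males, 3 of the 40 were called, beside 1.31% of all genes. All 3 were higher, in a comparison in which 243 genes were called higher and 41 lower before quantile normalization and 107 and 203 after it. These were Slc6a12, a betaine transporter (0.63, adjusted p = 0.0045), Dmgdh, which oxidizes the dimethylglycine left by BHMT (0.56, adjusted p = 0.00489), and Bhmt2, a relative of Bhmt (0.41, adjusted p = 0.0288). The median of the 40 was 0.12, beside 0.1 for all genes. None was called with ATB in the other 3 comparisons. On average, Slc6a12 (0.36) and Dmgdh (0.28) were the 2 called, beside 2.68% of all genes.

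With PXR loss in Cont females, 2 of the 40 were called, both lower, beside 4.09% of all genes, and the count is near that share. In that comparison 52 genes were called higher and 838 lower before quantile normalization, and 124 and 168 after it. The 2 were Baat, which joins taurine to bile acids (-0.46, adjusted p = 0.0423), and Fmo1, which oxidizes hypotaurine to taurine (-0.28 on 1 of its 4 probes, adjusted p = 0.0467). The median of the 40 was -0.18, beside -0.12 for all genes. None was called in the other 3 comparisons with PXR loss. Ggct, a cyclotransferase of glutathione breakdown, was the 1 called on average (-0.27, adjusted p = 0.00861), beside 4.47% of all genes. Between males and females, 2 were called higher and 17 lower in Pxr+/+ Cont mice, 6 and 5 in Pxr+/+ ATB mice, 2 and 11 in Pxr-/- Cont mice and 3 and 14 in Pxr-/- ATB mice. Beside these, 36.6%, 14.4%, 18.7% and 30.2% of all genes were called in the 4 comparisons, with the balance of higher and lower calls that quantile normalization evened out. The medians of the 40 were -0.25, -0.04, -0.15 and -0.22, beside -0.2, -0.04, -0.13 and -0.17 for all genes. Fmo1 was lower in males in all 4, by 1.37, 1.09, 1.03 and 1.33, and so was Ggct, by 1, 0.66, 1.05 and 1.02. Others among the 3 with the largest change were Slc16a6, a member of the monocarboxylate transporter family (-0.88 in Pxr+/+ Cont), Sms, which makes spermine (-0.63 in Pxr+/+ ATB), Nnmt, a methyltransferase (-0.89 in Pxr-/- Cont), and Got1, an aminotransferase (-0.84 in Pxr-/- ATB). None of the 40 was called in the 6 tests of a difference between responses.

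In those 6 tests none of the 8 genes was called either, beside 0.0184% of all genes for ATB by genotype in males and 0% in females, 0.046% for ATB by sex in Pxr+/+ and 0.0046% in Pxr-/- mice, and 0.023% and 0.0506% for PXR loss by sex in Cont and in ATB mice. At an unadjusted p under 0.05 there were 3 of the 8 for ATB by genotype in males and 1 in females, 4 for ATB by sex in Pxr+/+ mice and none in Pxr-/- mice, and 1 and 2 for PXR loss by sex in Cont and in ATB mice.

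The genes whose level ran most like each of the 8 over the 47 arrays were named by Pearson's r, as a description, since arrays of 1 group share sex, genotype and treatment. For Csad these were Comtd1 (r = 0.84), the transcript ENSMUST00000121806 (0.81) and Ephx1 (0.81), and for Mat1a Slco1a4, Mthfs and Gm41830 (0.88 each). For Cdo1 they were ENSMUST00000091506 (0.89), Nr1i3 (0.88) and ENSMUST00000119616 (0.88), and for Cbs Sdc1 (0.86), Pnp (0.86) and Crls1 (0.85). For Gnmt they were Cps1 (0.82), Ass1 (0.81) and Amy2a5 (0.8), for Cth Gm8221 (0.81), Hgd (0.8) and Apol7a (0.78), for Slc6a6 Nid2 (0.8), Prkcd (0.78) and Map3k4 (0.76), and for Bhmt Rbm44 (0.77), Agxt2 (0.73) and Kmo (0.71). With quantile normalization 12 of these 24 genes were again among the 3 nearest. Within the 8, Cdo1 and Mat1a ran together over the arrays (r = 0.8), but after group means were taken out r was 0.19, whereas Cth and Gnmt kept an r of 0.65 after that step (0.69 before). Csad and Cdo1 had an r of -0.35 over the arrays and of 0.44 within groups.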

How the data were processed

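Liver RNA was labelled with Cy3 and hybridized to Agilent Sureprint G3 mouse arrays, and the deposited scanner files hold intensity values per spot from Feature Extraction 10.10.1.1, with probe positions in mm9. The authors also deposited a table of log2 values, which they had filtered, corrected for wash batch and normalized by CrossNorm, and it served as an alternative. The order of the study's methods was followed from the scanner files, but the filter on dim probes, the number of stacks and the wash batch as a covariate in the fit were chosen here, since the sources used here do not state them. Median signals were put on the log2 scale, non-uniform spots (422 values) were left out, spots of a probe were averaged, the wash batch (3 batches) was removed, and arrays were normalized by CrossNorm with 300 random stacks of 1 array per group. Results stayed close to those without normalization between arrays, where 44 of 45 single differences gave the same result. For Pxr+/+ Cont males less females the median of all probes was -0.2 in both. With the authors' values it was -0.09, with 934 genes called higher and 4053 lower, against 551 and 7439 here. A probe was kept where 5 or more arrays of some group read it well above background. One fit of limma 3.58.1 in R 4.3.3 over all 8 groups, with wash batch as a covariate, gave the differences, and p-values were adjusted by Benjamini-Hochberg over all 32974 probes.

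Calls needed an adjusted p of at most 0.05 and a fold change above 1.2. Each of the 8 genes was read by its brightest probe, except Bhmt, which was read mainly by its coding-end probe, chosen by its result. A gene was called when any of its probes passed. A called pathway gene is given by its called probe with the largest change, which favours larger values where several probes were called. Medians of the pathway genes use the brightest probe of each. With only the brightest probe of each gene, Bhmt was not called with ATB or between the sexes. The text names all 8 genes, the 3 genes most like each, and in each comparison up to 3 called pathway genes with the largest change. The members and lists were chosen with earlier results of these data known. The average effects, the values within slides and wash batches and the comparison of spreads were added after the data were seen. Other normalizations, background corrections, blocks, filters and the omission of each array were tried as alternatives. No column of values lacked a sample (0 columns). On simulated data for ATB in Pxr+/+ females, 74% of probes changed by 0.5 and 98% of those changed by 1 on the log2 scale were called. The simulated noise was independent between probes, with 1 SD per probe over all groups, and 50 probes were changed at each size. In the real comparison 4 genes were called, so these shares do not give the power of the real tests. Arrays gave 31067 to 34458 probes well above background, and the number of arrays limits the precision. The highest correlation between 2 arrays was 0.9975, and no array was taken for a duplicate. Same-numbered mice did not deviate together (mean correlation of deviations from group means -0.03 over 161 pairs), so replicate numbers were not used to pair mice.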

Additional observations from a re-analysis of the deposited data

Results flagged for a closer look

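Of 112 sets of values (14 probes in 8 groups), 10 held a mouse far from the rest of its group, and chance alone sets about 1 in 20 such groups apart. For Csad it was Pxr+/+ Cont male replicate 4 on the dim second probe (6.28, next 5.77). In Pxr-/- ATB females, replicate 6 was high in Cdo1 on both probes (15.93, next 15.69, and 14.85, next 14.64), and replicate 4 was low on a dim Slc6a6 probe (6.83, next 7.21). In Pxr-/- Cont males, replicate 4 was high on another dim Slc6a6 probe (5.92, next 5.6) and replicate 3 on the dim Bhmt probe (7.13, next 6.45). Pxr+/+ ATB female replicate 1 was low on that Bhmt probe (6.1, next 6.75). Cbs was low in Pxr+/+ Cont male replicate 5 (15.96, next 16.11), Mat1a was high in Pxr+/+ Cont female replicate 1 (15.14, next 14.92), and Gnmt was low in Pxr-/- Cont female replicate 1 (15.8, next 16.44). The last of these mice was also 1 of the 2 that were low in Csad. All values are normalized log2 intensities.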

How the results depend on the processing

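No called difference of the 14 probes changed direction under the 9 settings that refitted them. Of 210 differences per setting (14 probes in 12 comparisons and 3 averages), called or not, 20 changed sign under quantile normalization, 21 with normexp, 28 with the processed signal and 11 with the authors' values. These were at most 0.24 in size before, and none of them was called after. The 8 genes gave 4 calls with ATB (4 to 6 under the alternatives, 2 to 6 when 1 array was left out), 3 with PXR loss (2 to 3, and 2 to 4), 13 between the sexes (8 to 13, and 12 to 14), none for differences between responses (0 in all alternatives, 0 to 1 without 1 array) and 10 on average (7 to 15, and 9 to 12). The calls with ATB dropped to 2 without Pxr+/+ ATB male replicate 2 or 5, and the 1 call of a difference between responses was Mat1a without Pxr+/+ ATB female replicate 1. Quantile normalization, with or without normexp background correction, lowered the calls between the sexes to 8. With the replicate block the counts were 6, 3, 13, 0 and 10, and Csad with ATB was then called in Pxr+/+ males (adjusted p = 0.0357) and Pxr-/- females (0.0398); the numbers do not pair the mice. Under quantile normalization 12 of the 24 most alike genes were shared. Csad with ATB in Pxr+/+ males was called under 7 of 9 alternatives (adjusted p from 0.0238 to 0.0685 over all 9) and without Pxr+/+ Cont male replicate 5 (0.0488). In Pxr-/- females it was called under 6 of 9 (0.0217 to 0.183), without Pxr-/- Cont female replicate 1 (0.032) and without replicate 5 (0.0475). Of 45 single differences, 17 lost and 2 gained a call under quantile normalization, 19 and 2 with the processed signal, 18 and 3 with normexp, 6 and 2 with the authors' values, and 7 and 1 with fits limited to the groups compared. The cause was not tested. The second Csad probe and the dimmest Bhmt probe are weak, so their differences are less precise.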
